A study of Homo sapiens with 6 samples.

Results

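The RUNX and ETV6 genes with their cofactors were described in REH cells, an established human leukaemia line of precursor B cells that carries the ETV6-RUNX1 fusion. The members were the rows of the authors' deposited table whose identifier equals a listed gene symbol, and all 8 of 8 symbols were found among its 26364 genes. They are the runt-domain factors RUNX1, RUNX2 and RUNX3, their partner CBFB, the ETS-domain repressor ETV6, and the corepressors CBFA2T2, CBFA2T3 and RUNX1T1. Cells received the STAT3 inhibitor S3I-201 at 50 µM for 6 h, or its solvent DMSO for the same time, with 3 libraries in each of the 2 groups. The series' design text places these libraries in independent experiments, all on the same cell line. The labels report no genetic change between the groups. The fusion is thus shared by treated and control cells.

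RUNX proteins bind DNA through their runt domain and hold it more tightly with CBFB, which does not touch DNA itself. RUNX1 is required for the formation of blood stem cells and for B-cell development, while RUNX2 is known for bone and RUNX3 for T cells and neurons. ETV6 represses transcription. In the fusion, made by a translocation between chromosomes 12 and 21, the 5′ part of ETV6 with its promoter is joined to nearly all of RUNX1. REH cells are known to have lost the other, normal copy of ETV6. CBFA2T2, CBFA2T3 and RUNX1T1 form the ETO family, which links DNA-binding factors to NCOR and histone deacetylases. RUNX1T1 is the partner of RUNX1 in another leukaemia fusion, and CBFA2T3 takes the same place in a rarer one.

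Each gene had 4 values per the authors' deposited table, namely the mean normalized count over all 6 libraries, the log2 fold change between groups and its p-value before and after adjustment. The table has no column for single libraries, so levels are given without a spread between libraries. The table does not name the reference group. Positive fold changes were read as higher with S3I-201, so all directions would turn if the reference were S3I-201. Size factors recovered from single-read steps ran from 0.573 to 1.27, which scales to about 6560000 to 14500000 counts per library. Whether reads that span the fusion junction were counted is not known. Counted reads of the fusion transcript fall under either ETV6 or RUNX1, and the gene sums cannot tell them from other reads of these genes. For RUNX1 these include reads of unrearranged copies, while REH cells are known to have lost the normal copy of ETV6.

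The start sites of RUNX2 and RUNX3 are shown first, because these are the paralogues of RUNX1 that were nearly silent in these cells and both carry the sequence that RUNX proteins themselves bind. Both stretches run from 250 bases before a RefSeq start to 30 bases after it on GRCh38.p14, 5′ to 3′ in the direction of transcription, and capitals mark ACCACA, the reverse complement of the RUNX core TGTGGT. The RUNX2 stretch lies at chr6:45328080-45328359 on the plus strand and the RUNX3 stretch at chr1:24964981-24965260 on the minus strand.
RUNX2: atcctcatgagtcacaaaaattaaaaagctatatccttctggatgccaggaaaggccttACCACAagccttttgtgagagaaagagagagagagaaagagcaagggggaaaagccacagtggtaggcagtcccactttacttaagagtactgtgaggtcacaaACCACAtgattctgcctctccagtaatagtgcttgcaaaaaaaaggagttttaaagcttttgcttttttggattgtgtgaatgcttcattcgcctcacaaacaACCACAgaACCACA
RUNX3: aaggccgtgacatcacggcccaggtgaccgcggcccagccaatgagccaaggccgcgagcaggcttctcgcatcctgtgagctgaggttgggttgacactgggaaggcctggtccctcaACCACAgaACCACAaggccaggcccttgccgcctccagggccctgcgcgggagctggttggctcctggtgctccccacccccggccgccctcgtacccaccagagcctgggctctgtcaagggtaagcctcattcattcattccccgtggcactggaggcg
The RUNX2 stretch holds 4 matches and the RUNX3 stretch 2, and in both a pair stands in tandem with 2 bases between. The full windows of 300 bases were searched on both strands. Of 35116 RefSeq starts, 13.1% held at least 1 match to TGTGGT, 1.31% held at least 2 and 0.0142% held at least 4. These shares are no test of the stretches shown, which were chosen partly because they hold matches. The second listed start of RUNX2 and that of RUNX3 had 0 matches, as did the listed starts of RUNX1, ETV6, CBFA2T2 and CBFA2T3. The matches of RUNX2 and RUNX3 thus lie only at the start nearest the 5′ end of each gene. The listed windows of RUNX1, CBFA2T2 and CBFA2T3 lie inside these genes, so starts at their 5′ ends were not searched. For RUNX1, the window ended at 34888949 while the gene reaches 35049302, so its like start cannot be compared. CBFB and RUNX1T1 had no entry. Neither the STAT motif TTCNNNGAA nor the ETS motif CCGGAAGT was found in any of the 8 windows of these 6 genes, against 7.66% and 4.14% of all windows. A match is a description of letters and not of binding.

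Among the runt-domain factors, RUNX1 was by far the most abundant. RUNX1, on chromosome 21 from 34787801 to 35049302 (hg38, whole gene), had a mean normalized count of 3190 per the authors' deposited table. RUNX2, on chromosome 6 from 45328330 to 45551082, had a mean of 8.49 per the authors' deposited table. RUNX3, on chromosome 1 from 24899511 to 24965138, had a mean of 1.40 per the authors' deposited table. Per kilobase of annotated exon, the mean normalized count of RUNX1 was 387, that of RUNX2 1.20 and that of RUNX3 0.320. RUNX1 was thus 324 times the level of RUNX2 and 1209 times that of RUNX3 on the per-kilobase scale. The mean of RUNX3 resolved into 10 whole reads in a single way within 2e-08, spread over 4 of the 6 libraries as 4, 3, 2 and 1 reads with 0 in the other two. These libraries could not be tied to groups or replicate numbers. The number of reads limits what the values of RUNX2 and RUNX3 can show.

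CBFB, the shared partner of the RUNX proteins, stood at the level of RUNX1. It lies on chromosome 16 from 67029149 to 67101058 and had a mean normalized count of 1230 per the authors' deposited table. Per kilobase its level was 388, next to 387 for RUNX1. Both exceeded 82.4% of the 11261 tested genes whose exon length was known.

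ETV6 was a low transcript. It lies on chromosome 12 from 11649674 to 11895377, and its mean normalized count was 88.7 per the authors' deposited table. Per kilobase its level was 14.8, above only 12.7% of tested genes and lower than RUNX1 by a ratio of 26.2. The length used, 5989 bases, covers all annotated exons of ETV6, while the fusion holds only its 5′ part. The level and rank can thus be too low and the ratio too large. The fusion transcript starts at the ETV6 promoter and contributes to both sums, but its share of either was not measured.

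The ETO family spanned the whole range. CBFA2T3, on chromosome 16 from 88874858 to 88977207, had the highest level of the members, with a mean normalized count of 3403 per the authors' deposited table and 731 per kilobase. That level was above 91.9% of tested genes. CBFA2T2, on chromosome 20 from 33490096 to 33650030, had a mean of 560 per the authors' deposited table and 59.9 per kilobase. RUNX1T1, on chromosome 8, was listed at 0 per the authors' deposited table, so no read was counted in any of the 6 libraries. A count of 0 allows up to 3 reads over the 6 libraries, or a mean normalized count of about 0.481, for counting error only.

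From high to low, the per-kilobase level was ordered CBFA2T3, CBFB, RUNX1, CBFA2T2, ETV6, RUNX2, RUNX3 and RUNX1T1. CBFB and RUNX1 cannot be ranked, and whether the other neighbours differ beyond the spread between libraries could not be tested. The place of ETV6 in this order rests on its full exon length. Exon lengths came from GENCODE 29, which need not be the annotation the authors counted on, so that ratios between genes depend on it. There RUNX1 reaches 36004667, beyond its RefSeq end at 35049302, and its length of 8234 bases is that of the longer model. The library method does not mark the strand, and an antisense transcript overlaps exons of CBFA2T3 by 182 bases. SUPT3H, which runs across RUNX2 on the other strand with a mean normalized count of 148 per the authors' deposited table, shares 0 exonic bases with it. RUNX1-IT1, an intronic transcript of RUNX1 with its own row, had a mean of only 2.84 per the authors' deposited table, which resolved into 18 reads.

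**Figure D1:**
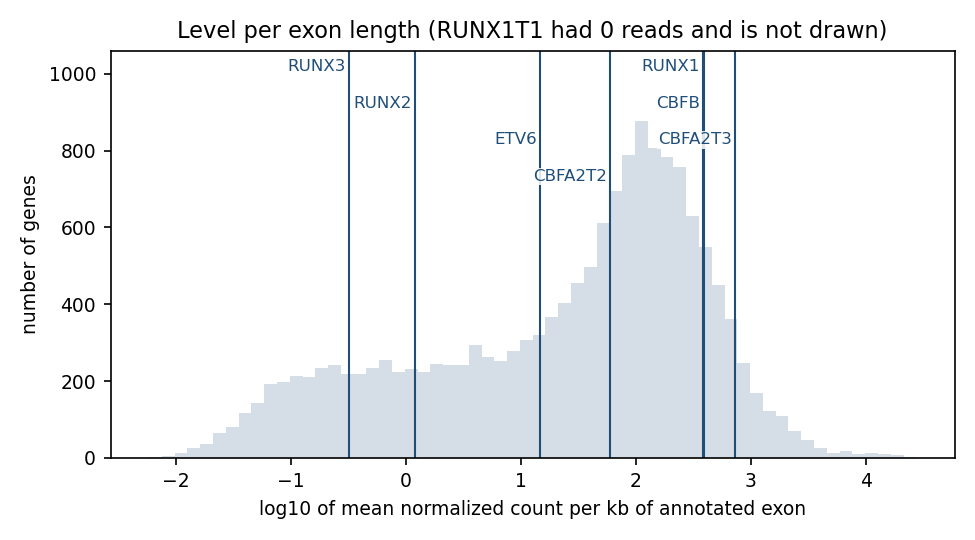
Histogram of the level of all genes with reads, as log10 of the mean normalized count per kilobase of annotated exon (x axis), against the number of genes (y axis), with a vertical line for each member. RUNX1 and CBFB coincide at 387 and 388 per kilobase, CBFA2T3 lies above them at 731, ETV6 at 14.8, and RUNX2 and RUNX3 lie far to the left at 1.20 and 0.320.

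The comparison of the groups asks whether transcripts of these genes changed when STAT3 was targeted. Of the 5 members with an adjusted p-value, 0 passed 0.05 by the authors' DESeq2 test, and 1 had an unadjusted p under 0.05. Across all 11912 tested genes the share called was 5.90%, with 4.45% higher and 1.45% lower, so that 0 of 5 is near the background. An unadjusted p under 0.05 was reached by 16.0% of tested genes. RUNX2 and RUNX3 had a p-value and no adjusted p, since every tested gene had a mean of at least 10.0, and RUNX1T1 had neither. The members' median log2 fold change over these 5 genes was 0.01, against -0.02 over all tested genes.

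RUNX1 had a log2 fold change of 0.03 per the authors' deposited table, or 1.02-fold (implied SE 0.13, DESeq2 adjusted p = 0.952). This SE was worked back from the fold change and its p-value. Its 95% interval ran from -0.22 to 0.28 on the log2 scale, or from 0.859-fold to 1.22-fold. Fold changes in this table appear shrunken towards 0, as genes with only 1 read in all had log2 values of just 0.0334 to 0.0422 in size. All intervals given here belong to that shrunken scale and can be too narrow for the unshrunken change, so they are not bounds on it. Of all tested genes, 89.3% had a change at least as large in size.

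RUNX2 had a log2 fold change of 0.12 per the authors' deposited table (implied SE 0.24), with an interval from -0.36 to 0.60. RUNX3 had 0.09 per the authors' deposited table (implied SE 0.15), with an interval from -0.19 to 0.38. The interval of RUNX3 rests on 10 reads. The unadjusted p was 0.634 for RUNX2 and 0.523 for RUNX3 per the authors' deposited table, so that no change of either gene was detected.

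CBFB had a log2 fold change of -0.25 per the authors' deposited table, or 0.839-fold (implied SE 0.17, DESeq2 adjusted p = 0.539). The 95% interval ran from -0.59 to 0.09 on the log2 scale. A change of that size or more was seen in 28.8% of tested genes. The value of CBFB thus did not pass.

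ETV6 had the largest value of the members, a log2 fold change of 0.46 per the authors' deposited table, or 1.38-fold (implied SE 0.22). The unadjusted p of ETV6 was 0.0328 per the authors' deposited table, and the DESeq2 adjusted p was 0.249. The interval from 0.04 to 0.89 on the log2 scale is not adjusted for the number of genes tested. Genes of like abundance, with means from 56.8 to 90.3, had a median implied SE of 0.23, so that the error of ETV6 was usual for its depth. Changes of that size or more were found in 9.22% of tested genes. RUNX1, which shares the fusion transcript with ETV6, had a value of 0.03 on the same scale. The share of the fusion in either value was not measured.

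The corepressors, like RUNX1, had values close to 0. CBFA2T2 had a log2 fold change of -0.05 per the authors' deposited table (implied SE 0.15, DESeq2 adjusted p = 0.932), with an interval from -0.35 to 0.24. CBFA2T3 had 0.01 per the authors' deposited table (implied SE 0.16, DESeq2 adjusted p = 0.986), with an interval from -0.30 to 0.32. Of all tested genes 96.3% had a change at least as large in size as that of CBFA2T3. The upper ends of these intervals were 1.18-fold for CBFA2T2 and 1.25-fold for CBFA2T3, and neither value passed.

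**Figure D2:**
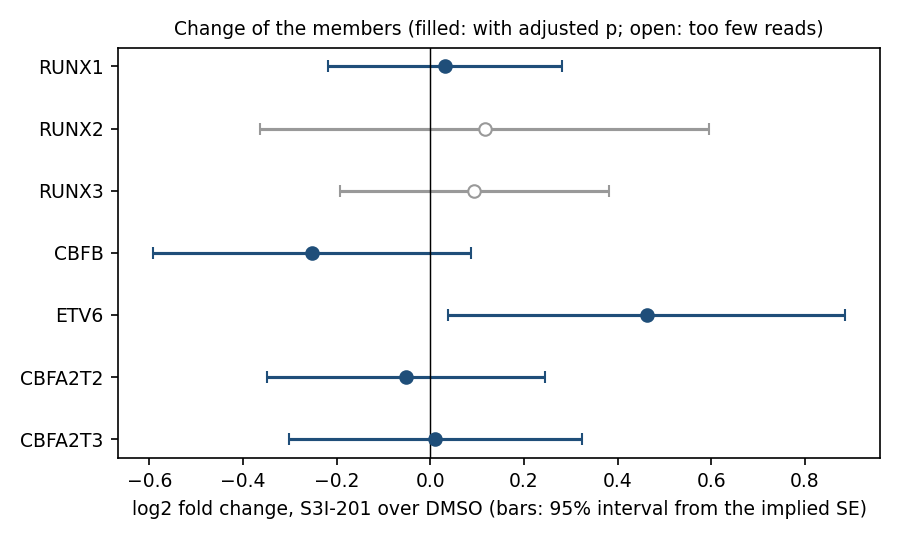
Log2 fold change of S3I-201 over DMSO (x axis) for the 7 members with reads (y axis), with bars for the 95% interval from the implied SE, filled points for genes with an adjusted p and open points for those with too few reads. The interval of ETV6 lies above 0, from 0.04 to 0.89, before adjustment for the number of genes, and the other 6 intervals include 0.

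**Figure D3:**
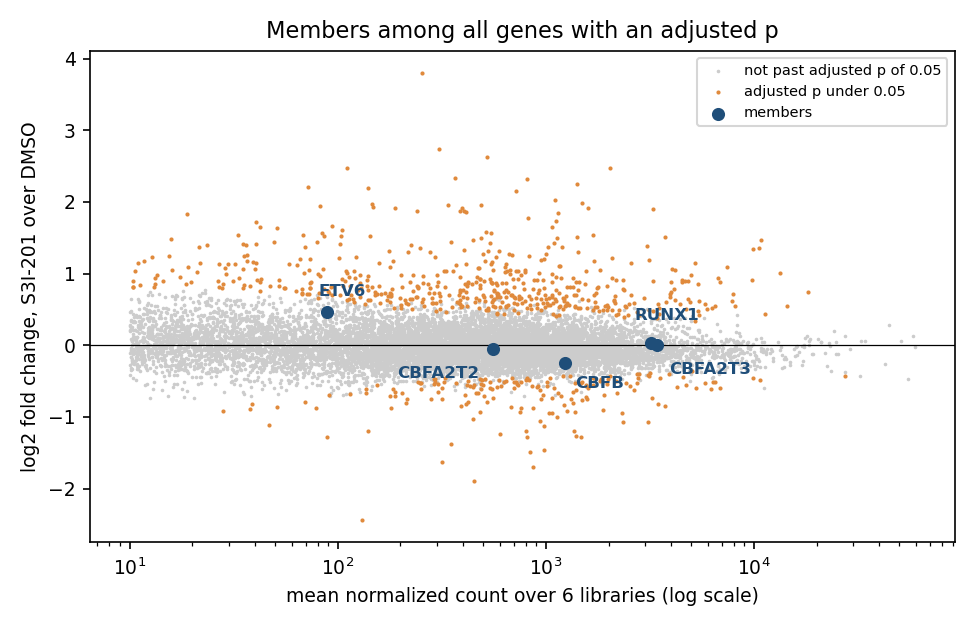
Log2 fold change (y axis) against mean normalized count on a log scale (x axis) for the 11912 genes with an adjusted p, with genes past 0.05 in orange and the 5 tested members in blue. The 5 members lie within the grey cloud, with ETV6 at 0.46 nearest its upper edge.

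The other genes of the pathway were described by 6 lists with 114 genes in all. Of the 86 that were tested, 2 were higher, 3 were lower and 81 did not pass, a share called of 5.81% against 5.90% over all tested genes. The median log2 fold change of the 86 genes was -0.03.

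Subunits of the corepressor complexes that ETV6, RUNX and the ETO family recruit had 1 of 17 tested genes higher and 0 lower. The share called was 5.88%, against 5.90% over all tested genes, and the median was -0.03. TBL1X, a subunit of the NCOR complex, rose with a log2 fold change of 0.55 per the authors' deposited table (implied SE 0.15, DESeq2 adjusted p = 0.00845). TLE4, a Groucho corepressor that RUNX proteins bind, had 0.49 (DESeq2 adjusted p = 0.144) and SIN3A, the scaffold of the SIN3 complex, -0.24 (DESeq2 adjusted p = 0.453) per the authors' deposited table. Among enzymes and coactivators that modify RUNX proteins or assist them, 0 of 17 passed the DESeq2 test of the authors and 3 had an unadjusted p under 0.05, with a median of -0.07. The arginine methyltransferase PRMT6 had -0.48 (DESeq2 adjusted p = 0.0913) and the tyrosine kinase SRC 0.34 (DESeq2 adjusted p = 0.203) per the authors' deposited table. PRMT1, which methylates RUNX1, had reads but no p-value.

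The other ETS factors, which share the DNA-binding domain of ETV6, had 0 of 19 tested genes higher and 1 lower. The share called was 5.26%, against 5.90% over all tested genes, and the median was 0.06. An unadjusted p under 0.05 by the authors' DESeq2 test was reached by 5 of the 19, against 16.0% of all tested genes. ETS1, a lymphoid factor that binds DNA together with RUNX1, fell by 0.57 on the log2 scale per the authors' deposited table (implied SE 0.16, DESeq2 adjusted p = 0.0101). ETV5 had 0.45 (DESeq2 adjusted p = 0.0687) and ERG -0.41 (DESeq2 adjusted p = 0.0820) per the authors' deposited table, and neither passed. With the abundance trend removed ETV5 passed at 0.50 (adjusted p = 0.0332), which makes 1 of 19 higher, and it also passed at 0.47 with the overall median removed (adjusted p = 0.0485), a setting chosen for list genes after seeing the data. ETV7, the closest relative of ETV6 and named for that reason, had 0.20 (DESeq2 adjusted p = 0.738) at a mean normalized count of 89.2 per the authors' deposited table.

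Factors that bind beside RUNX1 in blood cells had 2 of 10 tested genes lower and 0 higher, with a median of -0.04. The share called was 20%, all lower, against 1.45% lower and 4.45% higher over all tested genes. This share rests on only 10 genes, from a list chosen with earlier results of these data known. IKZF1, the lymphoid factor Ikaros, fell by 0.74 on the log2 scale per the authors' deposited table (implied SE 0.15, DESeq2 adjusted p = 4.39e-05). MYB, a regulator of blood progenitors, fell by 0.51 on the log2 scale per the authors' deposited table (implied SE 0.15, DESeq2 adjusted p = 0.0141), and did not pass, at -0.43, once the abundance trend was removed (adjusted p = 0.0508). LMO2, a bridging protein of the stem cell complex, had 0.25 (DESeq2 adjusted p = 0.683) and PAX5, the B-lineage factor, -0.15 (DESeq2 adjusted p = 0.686) per the authors' deposited table. EBF1 had a mean normalized count of 2992 and no p-value per the authors' deposited table, which is how DESeq2 by default reports a gene with an outlying count.

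Genes known as direct RUNX1 targets in blood were mostly too low to test, with 8 of 19 tested, 1 higher, 0 lower and a median of 0.05. The share called was 12.5% of these 8, against 5.90% over all tested genes. CDKN1A, the cell cycle inhibitor p21 and also a target of p53, rose with a log2 fold change of 1.90 per the authors' deposited table (implied SE 0.23, DESeq2 adjusted p = 4.76e-14). MYH10, a non-muscle myosin that RUNX1 represses in megakaryocytes, had -0.21 (DESeq2 adjusted p = 0.489) and MPO, myeloperoxidase, -0.16 (DESeq2 adjusted p = 0.677) per the authors' deposited table. Genes known for high expression in leukaemia with this fusion had 16 of 17 tested, of which 0 passed the DESeq2 test of the authors and 1 had an unadjusted p under 0.05, with a median of -0.02. That gene was SOCS2, a brake on cytokine signalling, at -0.42 (DESeq2 adjusted p = 0.176) per the authors' deposited table. TERF2, a telomere protein, had 0.27 (DESeq2 adjusted p = 0.379) per the authors' deposited table.

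**Figure D4:**
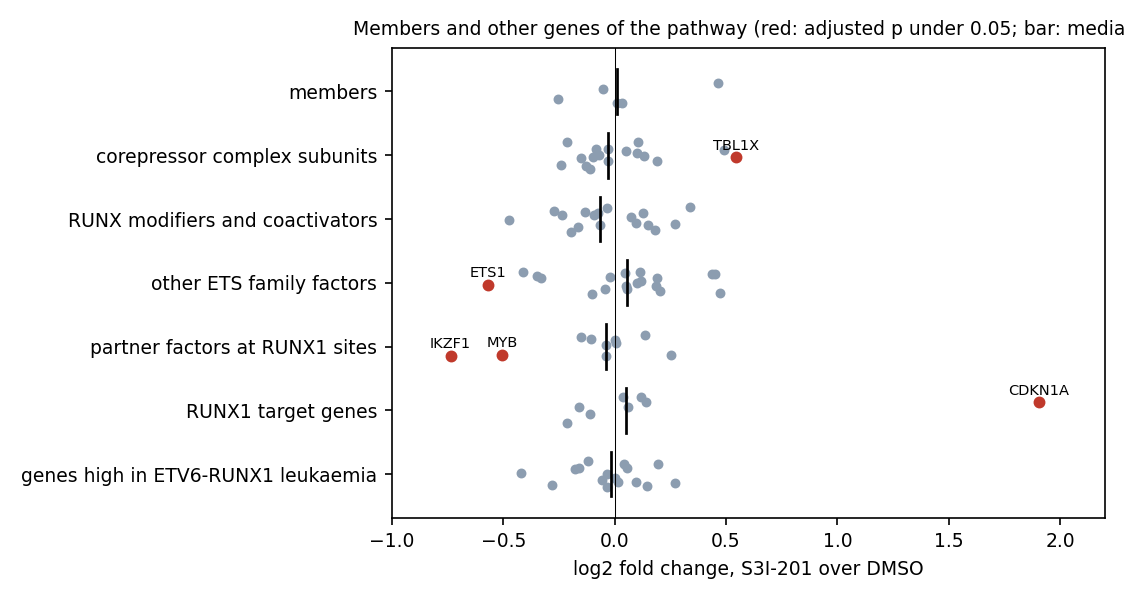
Log2 fold change of S3I-201 over DMSO (x axis) for the tested members and the tested genes of the 6 lists (y axis), where a point is a gene, red points passed an adjusted p of 0.05 and black bars are medians. The medians lie between -0.07 and 0.06, and the 5 labelled genes are TBL1X, ETS1, IKZF1, MYB and CDKN1A.

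The listed markers of the cells went mostly with the label. Of 13 B-precursor genes, 12 had reads, led by DNTT at a mean normalized count of 13622 and RAG1 at 10307 per the authors' deposited table, while VPREB1 was listed at 0. Of these genes 11 were tested, 1 was lower and 0 were higher, with a median of -0.18. The share called was 9.09%, against 5.90% over all tested genes. The surface protein CD24 fell by 0.61 on the log2 scale (DESeq2 adjusted p = 0.00505), DNTT had -0.31 (DESeq2 adjusted p = 0.162) and RAG1 -0.29 (DESeq2 adjusted p = 0.301) per the authors' deposited table. RAG2 went the other way, at 0.28 (DESeq2 adjusted p = 0.351) per the authors' deposited table. It was the only positive value of the 11, and the other 10 were negative. Of 16 markers of myeloid, T, NK, erythroid, endothelial and connective tissue cells, 15 were in the table, 7 of them at 0, and their means summed to 67.8. Both of those tested did not pass by the authors' DESeq2 adjusted p, or at an unadjusted p of 0.05, namely COL1A1 at -0.22 and NKG7 at 0.10 per the authors' deposited table. Myeloid genes outside these markers, taken from the RUNX1 targets, were uneven. MPO had a mean normalized count of 978 and CSF1R 127, while ELANE had 3.21, per the authors' deposited table. In these bulk samples fewer cells of a type and less RNA per cell cannot be told apart.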

How the data were processed

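REH cells were sequenced in 3 DMSO and 3 S3I-201 libraries made by the TruSeq RNA v2 method, per the labels' protocols. The submitters' processing notes name hg38, bcl2fastq 2.19, Trimmomatic, Bowtie2, Picard, featureCounts and DESeq2. Not given in the sources used here are the annotation, the strand setting and the model. The deposited mean normalized count is a signal on the scale of reads after division by library size factors, as the authors' DESeq2 column names say. Per the file headers, the authors also computed the log2 fold change and the raw and adjusted p-value, which were used as deposited, because the table holds no counts per library. P-values measure the spread between these libraries.

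Adjusted p-values of the authors covered 11912 genes, and a Benjamini-Hochberg adjustment of their p-values came within 0.675% of them. A gene was called where its adjusted p was under 0.05. The implied SE and its 95% interval were computed from the fold change and p-value with scipy 1.17.1. Steps of the mean in 2067 genes with means under 0.6 gave 6 size factors, which explained 100% of them within 1e-07. Exon lengths came from the GENCODE 29 basic set, and gene positions and start-site sequences from RefSeq (GRCh38.p14). Of 8 members, 6 had a sequence. Alternatives were other thresholds, other sets of genes adjusted over, a minimum fold change and removal of the median fold change overall or in 20 abundance bins, the last of which was tested on simulated data.

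The members and lists were chosen with earlier results of these data known. Named were all members, list genes that passed, and, per list, the 2 tested genes nearest to passing. PRMT1, EBF1, VPREB1, RAG2, ETV7, CSF1R, ELANE, SUPT3H and RUNX1-IT1 are outside this rule and were named after their values were seen. No gene was named for likeness to a member, which needs values per library.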

Additional observations from a re-analysis of the deposited data

How the results depend on the processing

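The count of 0 members called was the same without the abundance filter (7 members tested) and with the abundance trend removed. RUNX2 and RUNX3, which the first of these adds, could not pass, given their unadjusted p-values. Thresholds of 0.01 and 0.1 and a minimum log2 fold change of 0.5 can only return 0 here and say nothing on stability. The same holds for a minimum mean of 100 (4 tested), which drops ETV6 and leaves a smallest unadjusted DESeq2 p of 0.146. The fold changes of RUNX1, CBFB, ETV6, CBFA2T2 and CBFA2T3 kept their sign with the abundance trend or the overall median removed, and the adjusted p of ETV6 ranged from 0.216 to 0.346 over these and the unfiltered adjustment. Genes called lower numbered 173 in all, against 79 at a threshold of 0.01 and 270 at 0.1. In the 6 lists together, 3 were lower, against 1 at 0.01, 5 at 0.1 and 2 with the abundance trend removed, and 2 were higher, against 3 at 0.1 and 3 with the trend removed. No paired analysis was possible because the table holds no values per library, and for the same reason leaving out each library was not run. RUNX2, RUNX3 and RUNX1T1 had means under 10.0, the lowest with an adjusted p, and too few reads and absent expression cannot be told apart for RUNX1T1.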
